A study of Mus musculus with 4 samples.

Results

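Cytosolic ribosomal protein genes encode the proteins of the large (Rpl) and small (Rps) subunit of the ribosome that works in the cytosol. Members were chosen by name among the protein-coding genes of GENCODE M21, as symbols that begin with Rpl or Rps and a number, together with Rplp0, Rplp1, Rplp2 and Rpsa, leaving out the S6 kinases (Rps6k) and pseudogenes. The choice gave 86 of the 21866 protein-coding genes for which a representative transcript could be set, 52 named for the large and 34 for the small subunit. Of these, 77 were core ribosomal proteins and 9 were paralogs or other genes that carry the name (Rpl3l, Rpl7l1, Rpl10l, Rpl22l1, Rpl36al, Rpl39l, Rps27l, Rps19bp1 and Rps27rt). The rule used names and no peak value, although earlier results of these data were known when the members were chosen.

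Ribosomal proteins assemble with ribosomal RNA into the subunits that decode mRNA and join amino acids. Their mRNAs are short, are among the most abundant in most cells, and many begin with a pyrimidine tract that ties their translation to growth signals. Many of the genes have processed pseudogenes elsewhere in the genome, and many carry small nucleolar RNAs in their introns. N6-methyladenosine (m6A) is a methyl mark that a methyltransferase complex places on adenosines of mRNA, mostly in the sequence GGACT or close variants of it, and that is known to lie often near stop codons and in long exons.

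m6A-seq was performed on mRNA of whole brain of C57BL/6J mice at 4 weeks of age, which the design gives as Prrc2a flox/flox, with no Cre named, so that every sample carried the floxed alleles. Fragmented mRNA was bound with an antibody against m6A (IP), and RNA that had not gone through the antibody served as input. The series has 2 IP and 2 input samples, and the methods call the IP samples biological replicates. Only the IP samples had processed files, each a list of peaks with a position and a fold enrichment, which is the linear ratio of IP over input given by the peak caller. The lists held 38533 peaks in replicate 1 and 30134 in replicate 2, with median fold enrichments of 2.88 and 2.20, so that the replicates were on different scales and values are given for each. Neither read counts nor expression levels were in the lists, so that depth is unknown and the abundance of a transcript could not be set beside its peaks. A gene without a peak is therefore one in which none was called, and in whole brain a mark in a few cells and a weak mark in many cannot be told apart. Peaks covered exons of 8 of 8 brain marker genes (such as Snap25 and Slc1a2) in both replicates and of 0 of 6 marker genes of liver, muscle, pancreas and kidney, although a peak is not a level of expression.

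Sequences around GGACT are printed first, since GGACT is the usual place of the mark and both replicates had a peak over it in only some members. A peak is longer than these windows and does not single out an adenosine, so these are the letters under the peaks and not mapped sites. Each is read 5′ to 3′ on the strand of the gene from build GRCm38 (mm10), with GGACT in capitals. The first 7 lay under a peak in both replicates, in the coding sequence (CDS) of Rpl4, Rpl13a and Rpl21 and in the 3′ UTR of Rpl41, Rpl7l1 and Rps19bp1 (2 sites). The last 2, in the CDS of Rpl3 and Rpl24, lay under no peak.
Rpl4: ccagagaaggGGACTgcagacaaga
Rpl13a: caagaccaacGGACTcctggtgtga
Rpl21: cactttgtgaGGACTaatggaaaag
Rpl41: acaagctatcGGACTgtgtgctgcc
Rpl7l1: ttagaaagaaGGACTgctggcaagc
Rps19bp1, nearer the stop codon: ctccttggctGGACTtctgctgtcc
Rps19bp1, farther from it: aaactgaagtGGACTtctagtttgg
Rpl3: agctggagaaGGACTtcaacagcat
Rpl24: cagataaactGGACTgtcctctaca

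The Rpl4 window was chr9:64178292-64178316 on the plus strand, in the last exon. The Rpl13a window was chr7:45125946-45125970 on the minus strand and its GGACT lay 12 nt before the end of the stop codon. The Rpl21 window was chr5:146835885-146835909 (plus strand). The Rpl41 window was chr10:128548303-128548327, the Rpl7l1 window chr17:46774140-46774164, and both were on the minus strand. The windows of Rps19bp1 were chr15:80260921-80260945 and chr15:80260764-80260788 on the minus strand, 51 and 208 nt past the stop codon. The Rpl3 window was chr15:80080939-80080963 (minus strand) and the Rpl24 window chr16:55967120-55967144 (plus strand).

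With peaks counted by 1 exonic base, ribosomal protein genes carried m6A peaks somewhat more often in these lists than other genes of similar length. The difference turned its direction under some other ways of counting, and the peaks were weak. A peak covered an exon of 40 of the 86 members (46.5%) in replicate 1 and of 31 (36.0%) in replicate 2. A shared peak, meaning a peak of each replicate over the exons with at least 1 base in common, was found in 25 members (29.1%). In 15 members a peak was called in replicate 1 only, in 6 in replicate 2 only, and in 40 in neither. The 86 transcripts had a median exon length of 846.5 nt (345 to 5179 nt), and a longer transcript has more room for a peak, so other genes of similar exon length were used for comparison. These were the 7051 other protein-coding genes of 489 to 1882 nt, which spans the members between their 10th and 90th percentile of length. Their median exon length was 1237 nt. Without expression levels, genes that are silent in brain could not be left out of them. Of the 7051 genes, 31% had a peak in replicate 1, 27.5% in replicate 2 and 23.7% a shared peak. Over all protein-coding genes the shares were 53%, 48.3% and 44.3%. The nuclear genes of oxidative phosphorylation, with shorter transcripts (median 764 nt, n = 86), had higher shares than the members, of 54.7%, 53.5% and 38.4%. The proteasome subunit genes (median 1541 nt, n = 39) had a peak in 66.7% in each replicate and a shared peak in 51.3%.

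The members thus stood 15.5, 8.52 and 5.41 percentage points above the genes of similar length, in replicate 1, replicate 2 and for shared peaks. The replicates of the members lay further apart from each other than replicate 2 did from the genes of similar length. The size and the direction of these differences did not hold under every setting. With the exons of all transcripts they were 10.5, 3.86 and 0.549 points, and when the midpoint of the peak had to lie in an exon the difference in replicate 2 was 0.138. Among peaks with a fold enrichment of at least 2, the difference was -4.26 points in replicate 1, -4.06 in replicate 2 and -7.01 for shared peaks. Under the midpoint rule the difference for shared peaks was -4.65 points. No test was made of these shares, since genes are not replicates of a condition.

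**Figure D1:**
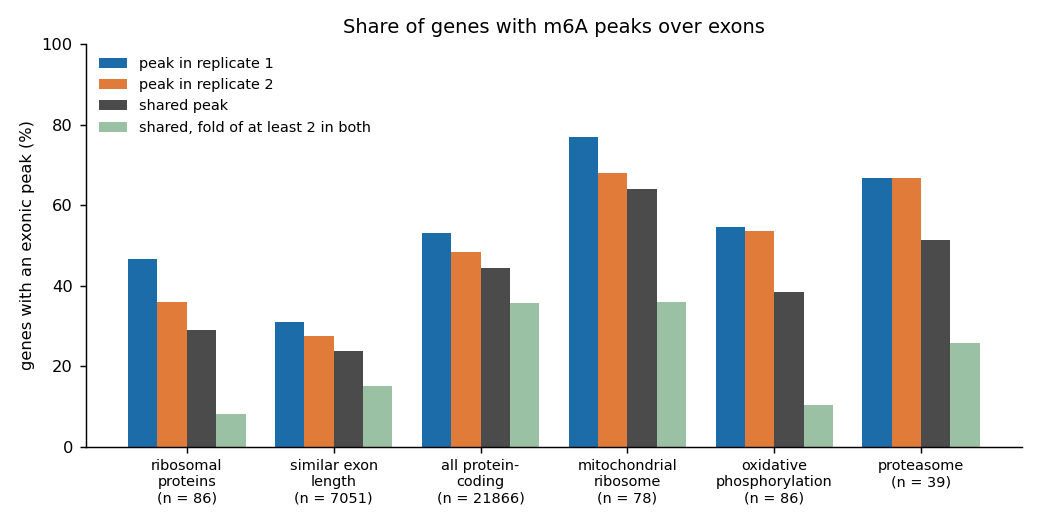
Share of genes (%, vertical axis) with an m6A peak over an exon in replicate 1, in replicate 2, in both (shared), and shared with both folds at 2 or more, for 6 groups of genes with their n. Bars are counts over genes and carry no error bar. The ribosomal protein genes stood at 46.5%, 36.0%, 29.1% and 8.14%, above the genes of similar exon length in the first 3 and below them (15.1%) in the last.

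The fold enrichment of the ribosomal protein genes was below that of the genes of similar length under every setting tried. For each gene with a peak the strongest exonic peak was taken. Its median fold enrichment over the members was 1.91 (quartiles 1.44 and 2.44, n = 40 genes) in replicate 1 and 1.83 (1.37 and 2.09, n = 31) in replicate 2. Over the genes of similar length it was 2.92 (2.20 and 4.01, n = 2189) and 2.29 (1.82 and 2.88, n = 1941). The medians of the members in the replicates were closer to each other than either was to the genes of similar length. The strongest peak reached a fold of 2 in 18 of 40 members (45.0%) in replicate 1 and in 12 of 31 (38.7%) in replicate 2, against 81.1% and 65.4% of the genes of similar length with a peak. When each member was set beside the genes within 10% of its own length, 37 of 40 members in replicate 1 and 25 of 31 in replicate 2 lay below the median of those genes. A shared peak that reached a fold of 2 in each replicate was found in 7 of 86 members (8.14%), beside 15.1% of the genes of similar length and 35.6% of all protein-coding genes. They included Rps19bp1, Rpl7l1, Rpl4, Rpl5, Rpl36al and Rpl11. Core ribosomal proteins made up 4 of them, or 5.19% of the 77.

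**Figure D2:**
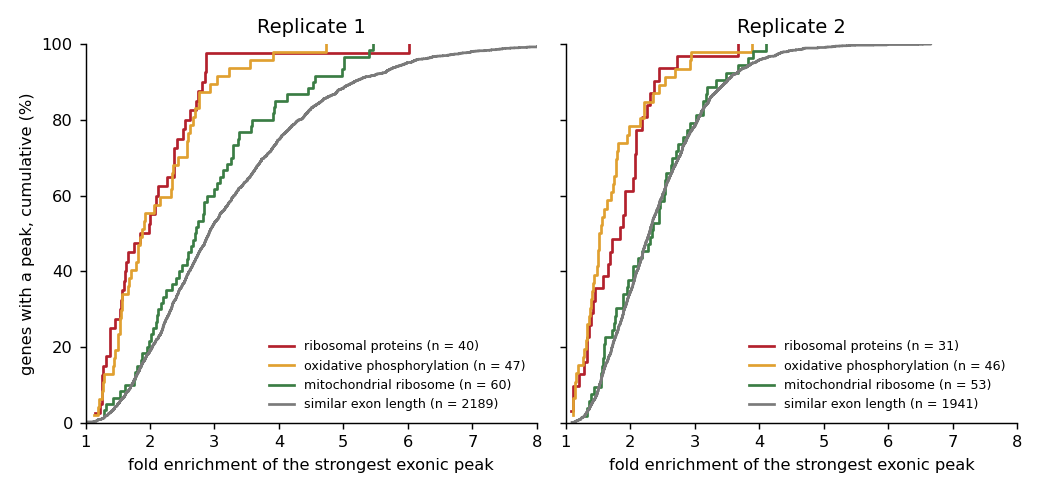
Cumulative share of genes with a peak (%, vertical axis) against the fold enrichment of their strongest exonic peak (horizontal axis, drawn up to 8), for replicate 1 (left) and replicate 2 (right). The line of the ribosomal protein genes lay to the left of the genes of similar exon length in both replicates (medians 1.91 against 2.92, and 1.83 against 2.29), near the line of the oxidative phosphorylation genes (1.87 and 1.53).

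Low enrichment was shared by the oxidative phosphorylation genes, while proteasome and mitochondrial ribosome genes had higher medians than the members. Against the genes of similar length (2.92 and 2.29), proteasome genes were lower in both replicates and mitochondrial ribosome genes in replicate 1. The 86 nuclear genes of oxidative phosphorylation had medians of 1.87 in replicate 1 and 1.53 in replicate 2, and their strongest shared peak by the lower of both folds was that of the ATP synthase subunit gene Atp5h (2.70 in both replicates). The 39 proteasome subunit genes had medians of 2.19 and 1.94, with Psmd7 (5.13 and 3.23) highest among the shared peaks by the same measure. The 78 genes of the mitochondrial ribosome, which encode the same kind of protein for the organelle, had medians of 2.70 and 2.34. By the lower of both folds their strongest shared peak was in Mrpl12 (5.002 and 4.10), and 64.1% of them had a shared peak, against 29.1% of the cytosolic ribosomal protein genes. Mitochondrial ribosomal protein transcripts were longer (median 1302 nt), so the share is not one at matched length.

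**Figure D3:**
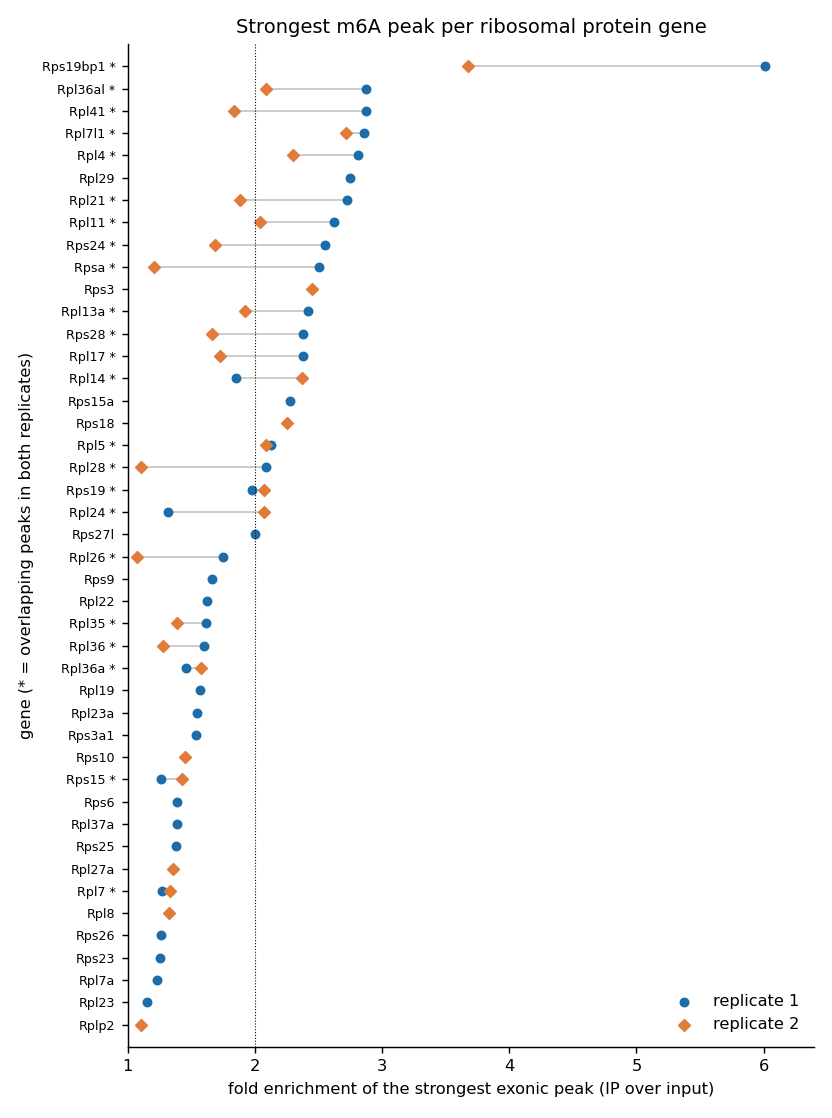
Fold enrichment (IP over input, horizontal axis) of the strongest exonic peak of ribosomal protein genes with a peak (rows, leaving out those not reported here), with replicate 1 as circles and replicate 2 as diamonds. A star marks overlapping peaks in both replicates and the dotted line a fold of 2. Rps19bp1 (6.01 and 3.67) stood alone at the right, and the next genes reached 2.87.

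Among the genes named for the large subunit, paralogs included, 18 of 52 (34.6%) had a shared peak, beside 23.7% of the genes of similar length. Rpl4 (ENSMUSG00000032399.8), a protein with a long extension into the subunit, had the strongest among the core proteins by the lower of both folds. Its peaks read 2.81 in replicate 1 (chr9:64178206-64178553) and 2.30 in replicate 2 (chr9:64178224-64178546), in the last exon and over the stop codon. The peaks of both replicates almost coincided, lay 95.1% and entirely (100%) within the exon, and covered the GGACT printed above.

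Rpl5 and Rpl11, which bind 5S ribosomal RNA together and can hold the p53 regulator Mdm2, both had shared peaks near the end of the CDS. Rpl5 (ENSMUSG00000058558.12) read 2.12 (chr5:107907728-107908096) and 2.09 (chr5:107907740-107908096) over its stop codon. This peak also touched an exon of Fam69a, and without strand its reads cannot be assigned to 1 of the genes. A weaker shared peak of Rpl5 in exon 7 read 1.67 and 1.36. Rpl11 (ENSMUSG00000059291.15) read 2.33 (chr4:136050115-136050546) and 2.04 (chr4:136049975-136050538) in exon 5, and its exon 4 had another shared peak with 2.62 and 1.73. Only 25.7% and 27.1% of the peaks at exon 5 lay in exons. In Rpl5 the replicates were nearly equal, and in exon 4 of Rpl11 replicate 1 was the higher.

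Rpl13a (ENSMUSG00000074129.14) read 2.42 in replicate 1 and 1.92 in replicate 2, at chr7:45125833-45126314 in both, over the stop codon and an exon of Gm45713. Rpl14 was the reverse, with 1.85 in replicate 1 and 2.37 in replicate 2. In replicate 1 a single peak ran over 3 of its exons, and in replicate 2 the same stretch held 2 peaks.

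Rpl41 encodes the smallest ribosomal protein, and its peak covered the start codon, the stop codon and 3 exons in both replicates (2.87 and 1.83). Rpl21 read 2.72 and 1.60 over the stop codon, and Rpl17 read 2.37 and 1.72. Rpl36a (1.46 and 1.58), Rpl35 (1.62 and 1.39), Rpl36 (1.59 and 1.27) and Rpl7 (1.27 and 1.33) were below a fold of 2 in both replicates. The replicates lay far apart in Rpl28 (2.08 and 1.104), Rpl26 (1.75 and 1.07) and Rpl24 (1.32 and 2.07). In Rpl24 only 8.50% of the peak of replicate 1 lay in the exon, and 32.7% of that of replicate 2.

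Among the genes named for the small subunit, 7 of 34 (20.6%) had a shared peak, beside 23.7% of the genes of similar length. The subunits were nearly equal in the share with a peak in at least 1 replicate. It was 53.8% for the large and 52.9% for the small subunit, beside 33.8% of the genes of similar length. Rps19 (ENSMUSG00000040952.16), which is mutated in a congenital anaemia, read 1.98 (chr7:24889562-24889940) and 2.07 (chr7:24889563-24889940). On the representative transcript, which has a CDS of 639 nt, this peak lay in the 3′ UTR, 494 nt past the stop codon. A second shared peak of Rps19 in the same exon, within the CDS of that transcript, read 1.498 and 1.61. Both placements hold for that transcript only. Both peaks had nearly the same ends in the 2 replicates.

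Rps24 read 2.55 and 1.69 over its stop codon, but only 3.76% of the replicate 1 peak and 27.2% of the replicate 2 peak lay within exons of the representative transcript. Rps28 read 2.38 and 1.66 and also touched Kank3. Rps15 read 1.26 and 1.42. Rpsa, which is also known as the laminin receptor, read 2.51 in replicate 1 and 1.21 in replicate 2 over its stop codon. Replicate 1 was the higher in Rps24, Rps28 and Rpsa, and replicate 2 in Rps15.

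The genes that carry the name without being core ribosomal proteins held 3 of the 7 strong shared peaks. Rps19bp1 (ENSMUSG00000051518.8) encodes a protein that binds Rps19 and a regulator of the deacetylase Sirt1, and is in the list by its symbol alone. Its peak read 6.01 in replicate 1 (chr15:80260623-80261313) and 3.67 in replicate 2 (chr15:80260638-80261241), the highest of all members in both replicates. It covered the stop codon and 2 GGACT in the 3′ UTR.

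Rpl7l1 (ENSMUSG00000063888.7), a paralog of Rpl7, had 3 shared peaks. At the first exon its peaks read 2.62 (chr17:46782429-46782635) and 2.72 (chr17:46782431-46782630), but only 8.21% and 6.00% of these peaks lay in the exon. In the 3′ UTR, fully within the last exon, it read 2.85 and 2.10, and in exon 2 it read 1.52 and 1.75. Rpl36al (ENSMUSG00000049751.6), a paralog of Rpl36a without introns, read 2.57 (chr12:69183793-69184182) and 2.08 (chr12:69183809-69185093) in the 5′ UTR, where the peak also touched Mgat2. Of these peaks 56.7% in replicate 1 and only 16.0% in replicate 2 lay in the exon of Rpl36al. A second peak of Rpl36al over its whole CDS read 2.87 and 1.48 and touched Gm49383. No peak was called in Rpl3l, Rpl10l, Rpl22l1, Rpl39l or Rps27rt. With the core proteins alone, the median of the strongest peak was 1.71 in replicate 1 and 1.70 in replicate 2.

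In 21 members a peak was called in 1 replicate only. In replicate 1 the strongest of 15 were Rpl29 (2.75), Rps15a (2.27), the paralog Rps27l (2.00), Rps9 (1.66) and Rpl22 (1.63), and the weakest was Rpl23 (1.15). In replicate 2 the strongest of 6 were Rps3 (2.45), Rps18 (2.25), Rps10 (1.45), Rpl27a (1.36) and Rpl8 (1.32). Rps6, the target of the S6 kinases, read 1.39 in replicate 1 and had no peak in replicate 2. Rpl29, Rps15a, Rps3 and Rps18 were above a fold of 2 in 1 replicate and had no peak in the other. Only 16.4% of this Rps18 peak lay in the exons, and it also touched Vps52. The Rps15a peak lay 4144 nt past the stop codon, in a representative transcript of 5179 nt.

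The stalk proteins, which draw the elongation factors to the ribosome, had few peaks, in a set where 40 of 86 members had none. Rplp0, Rplp1 and Rpl12, which sits at the base of the stalk, had none in either replicate, and Rplp2 had 1 in replicate 2 (1.103). Rpl3 and Rpl10, with 85.2% and 84.4% of their sequence repeated in the genome, had none, nor did the small subunit genes Rps2, Rps14 and Rps20. Some proteins of the same particle have genes that carry other names. Fau, a ubiquitin-like fusion with a small subunit protein, had a shared peak (2.27 and 1.62). The scaffold gene Rack1 had none.

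Over all members there were 53 exonic peaks in replicate 1, of which 36 were shared, and 48 in replicate 2, of which 37 were shared. Their fold enrichment ran from 1.12 to 6.01 (median 1.67) and from 1.07 to 3.67 (median 1.69), and 21 and 13 of them reached 2. Of 37 matched pairs of peaks 25 were higher in replicate 1 (67.6%), beside 77.4% of 2527 pairs in the genes of similar length. The exonic part made up a median of 48.9% of a peak in replicate 1 and 51.5% in replicate 2, and the rest of the peak lay in introns or past the ends. In replicate 1, 13 of the 53 peaks touched an exon of another gene, and in replicate 2 15 of 48.

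Most shared peaks of ribosomal protein genes lay near the end of the CDS. The bases common to both replicates formed 37 shared intervals in 25 members, and each was placed on the transcript by its midpoint. Of these, 28 (75.7%) were in the CDS, 8 in the 3′ UTR and 1 in the 5′ UTR, while CDS made up 50.2% and 3′ UTR 35.4% of the bases of these transcripts. Of 37 midpoints 26 (70.3%) were at most 200 nt from the stop codon, where 30.8% of the bases lay. In the genes of similar length 38.8% of 2579 midpoints lay there, with 27.3% of the bases. The median midpoint lay at -72 nt from the end of the stop codon, where a negative value is upstream, against -223 nt in the genes of similar length. The median CDS was 457.5 nt in the members and 750 nt in those genes, so the distances are not at matched CDS length. The stop codon itself was covered by 18 intervals (48.6%, against 33.7%), and the start codon by 2 (5.41%, against 20.1%).

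**Figure D4:**
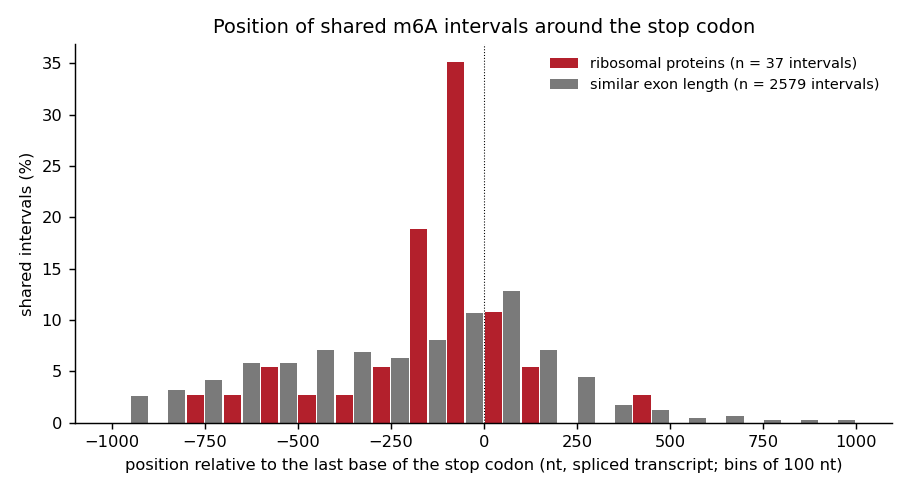
Share of shared intervals (%, vertical axis) by the distance of their midpoint from the last base of the stop codon along the spliced transcript (nt, horizontal axis, bins of 100 nt, negative before the stop), for 37 intervals of ribosomal protein genes and 2579 of genes of similar exon length. Midpoints more than 1000 nt away are counted in n and not drawn. The intervals of the ribosomal protein genes gathered in the 200 nt before the stop codon.

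The position near the stop codon was not particular to the cytosolic ribosome. In the mitochondrial ribosomal protein genes 71.4% of 63 midpoints lay within 200 nt of it, whereas 32.6% of 46 did in the oxidative phosphorylation genes and 33.3% of 42 in the proteasome genes. The last exon held 22 of the 37 intervals of the members (59.5%, with 45.2% of the bases) and internal exons held 12. The exons under the midpoints were short, with a median of 186 nt against 361 nt in the genes of similar length, and 27.0% of the intervals ran over more than 1 exon against 7.52%. The first 200 nt of the transcript held 3 midpoints (8.11%, against 22.9%).

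The transcripts of the members offered fewer GGACT than those of similar length. They held 0.886 GGACT per kb, against 1.20 in the genes of similar length, and 3.50 GGAC per kb against 4.44. GGACT on the strand of the gene was found in 51 of 86 member transcripts (59.3%), in 72.7% of those of similar length and in 86.8% of all protein-coding transcripts. The last exon was short (median 221.5 nt, against 536 nt), as was the 3′ UTR (89 nt, against 223 nt), while internal exons had the same median of 114 nt.

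Members with and without GGACT differed in no single direction in their share with a peak. In replicate 1 it was 47.1% of the members with GGACT and 45.7% of those without, and in replicate 2 33.3% and 40.0%. A shared peak was found in 15 of 51 members with GGACT (29.4%) and in 10 of 35 without it (28.6%). In the genes of similar length the shares were 26.3% and 16.6%. Of 79 GGACT in the members, 11 (13.9%) lay under a peak in both replicates, beside 11.6% of 10409 in the genes of similar length. Of the 37 shared intervals 9 (24.3%) contained GGACT and 18 (48.6%) the shorter GGAC, beside 32.1% and 69.5% in the genes of similar length. The intervals of the members were shorter (median of 184 exonic nt, against 210), so these shares are not at matched interval length. GGAC includes every GGACT, and the search was confined to the exonic bases.

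Much of the sequence of these genes is repeated in the genome, which bears on what the peaks can show. Only reads that mapped to 1 place were kept by the authors, so reads that match both a gene and its pseudogene could be lost. Of the 101-base words of a member transcript, a median of 39.1% occurred elsewhere in the genome, against 0 in the genes of similar length. At least 20% of the words were repeated in 59 of 86 members (68.6%), against 15.4% of the genes of similar length. Rps27 was the extreme, with 99.6% of its words repeated, and had no peak.

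The share of members with a peak was higher among those with under 20% repeated words, but not among those with none. In replicate 1 it was 51.9% of the members with under 20% repeated words and 44.1% of the others, and in replicate 2 44.4% and 32.2%. A shared peak was found in 9 of 27 members with under 20% repeated words (33.3%) and in 16 of 59 of the others (27.1%). In the genes of similar length the same split gave 26.2% and 9.84%. The 7 members with no repeated words had lower shares than either class of members. These were 42.9% in replicate 1, 28.6% in replicate 2 and 14.3% (1 gene) for shared peaks. Rpl32, with 0.248% of words repeated, had no peak in either replicate. Rpl36a and Rpl24 had a shared peak with 91.6% and 83.9% repeated. Within the members with a shared peak, 31.6% of the words under the shared intervals were repeated and 28.5% of those outside them. The paper gives the reads as paired-end, and repetition of single words does not measure how many of them were lost. Whether lost reads lowered the number of peaks was not tested.

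**Figure D5:**
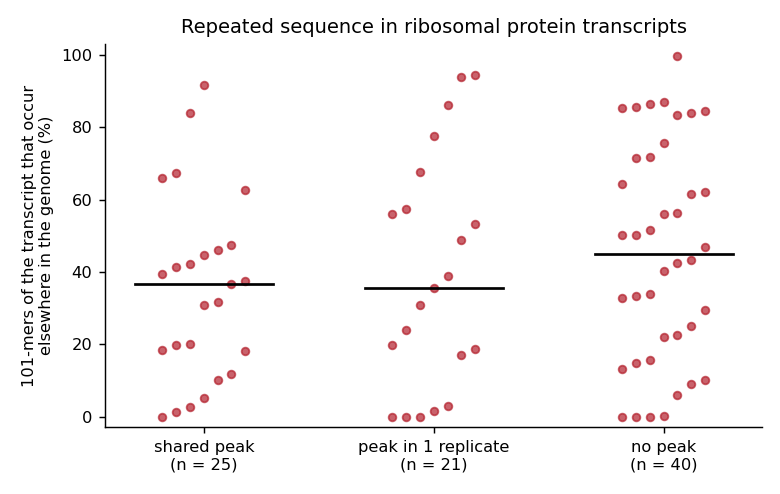
Share of 101-base words of each ribosomal protein transcript that occur elsewhere in the genome (%, vertical axis), for the 25 members with a shared peak, the 21 with a peak in 1 replicate and the 40 with none. Each point is a gene and the bar is the median (36.7%, 35.6% and 45.0%), and the 3 groups overlap over most of the range.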

How the data were processed

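The authors trimmed the reads, aligned them to mm10 (TopHat2 2.0.9 per the labels), kept uniquely mapped reads with duplicates, and called peaks with MACS2 in each IP replicate against its own input at a false discovery rate threshold. The deposited values are fold enrichments, a linear ratio of IP over input. Where input coverage is low, the ratio depends on the smallest control value the caller allows. The lists hold no strand, count, p-value or q-value, so depth and intervals are unknown.

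Gene models were GENCODE M21 on GRCm38, with 1 transcript a gene (longest CDS, then longest transcript). A peak was assigned to a gene by 1 exonic base. Scripts ran in Python 3.11.15 with numpy 2.4.6, pandas 2.3.3 and numba 0.67.0, and were tested on simulated data. Repeated words are 101-mers on either strand found away from their own place. The members and the gene lists were chosen with earlier results of these data known, and no test was run. Genes were named by a rule: all members with a shared peak, ranked by the lower fold of the best shared peak, the first 10 with position, then the 5 strongest members per replicate among those with a peak in 1 replicate only. From the compared lists it named Fau, Rack1, Eef1a1, Eef2 and the strongest shared peak of each. A few genes that the rule names are not reported here. Members with no peak, Rps6, Rpl23, Fbl and those given as examples of repetition or of a second peak were named after their values were seen. Input samples enter only through the ratio. Alternatives are given in the closing section.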

Additional observations from a re-analysis of the deposited data

How the results depend on the processing

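Of 75 alternative values of 10 results, 9 turned their direction, all of them differences in share. Counts of members have no direction to turn. The lower fold enrichment of the members held under every alternative tried, where replicate 1 had medians of the strongest peak between 1.64 and 2.53, and replicate 2 between 1.65 and 2.22. The difference in the share with a peak against genes of similar length was positive in 24 of 33 alternatives, some of them close to 0. With the exons of all transcripts it was 10.5 points (replicate 1), 3.86 (replicate 2) and 0.549 (shared), and in replicate 2 it was 0.138 with the midpoint in an exon, 2.46 with at least 50% of the peak in exons and 2.68 without peaks that touch another gene. It turned to -4.26 points (replicate 1), -4.06 (replicate 2) and -7.01 (shared) with a fold of at least 2, where 18, 12 and 7 members were left. It turned to -2.78, -8.61 and -11.4 when the comparison ran from the lowest to the highest member length, and was 20.9, 13.5 and 9.57 within 10% of the length of each member. Without receptor, keratin-associated and defensin families among the compared genes it was 12.9, 6.21 and 3.43 points. With at least 50% of the peak in exons, 24 members were left in replicate 1 (difference 2.72 points) and 15 with a shared peak (difference -1.41). With the midpoint in an exon 14 members had a shared peak (difference -4.65). Leaving out peaks that touch another gene gave -0.386 for shared peaks. Among members under 20% repeated words 9 had a shared peak. Without replicate 1 or replicate 2 the count of members was 31 to 40, against 25 shared, and the difference 8.52 to 15.5 points. These repeat the main values of the single replicates and could not come out otherwise, and both differences are among the 24. The alternative with the APPRIS principal transcript was chosen after seeing the data and changed no direction. No paired analysis was possible because only the IP samples have processed files: IP and input samples share replicate numbers, but the input values enter only through the ratios, and no test was run. Unknown depth, 2 replicates and the missing transcript level limit what the absence of a peak shows.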

Other observations

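Genes of ribosome biogenesis carried stronger peaks than those of the ribosomal proteins, while elongation factor genes were above them in replicate 1 only by the median. Of 7 elongation factor genes 6 had a shared peak, with a median strongest fold of 2.60 in replicate 1 and 1.77 in replicate 2. Eef1d, a subunit of the exchange factor for Eef1a, was highest (6.77 and 2.79), and Eef2, which moves the ribosome along the mRNA, read 3.02 and 1.81. Eef1a1, which delivers aminoacyl-tRNA, had no peak, and 36.5% of its words were repeated in the genome. Of 30 ribosome biogenesis genes 25 had a shared peak (medians 4.05 and 2.70). The nucleolar protein gene Ncl had the strongest shared peak by the lower of both folds (7.46 and 4.96). Fbl, the methyltransferase of box C/D small nucleolar RNPs, had the highest peak in replicate 1 (7.83, with 4.64 in replicate 2). Repeated words made up 68.8% of Fbl, more than in Eef1a1, and 0% of Ncl. These transcripts are longer (medians 2084 and 2700.5 nt), so the comparison with ribosomal protein genes is not at matched length.

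Pseudogenes named after ribosomal protein genes numbered 300, and 60 of the 86 members have at least 1. A peak lay over 5 of them in replicate 1 and over 3 in replicate 2, with 2 in both. Rpl36-ps12 read 10.4 and 4.66, and Rps19-ps3 read 4.00 and 2.57, above the exonic peaks of their parent genes Rpl36 (1.59 and 1.27) and Rps19 (1.98 and 2.07). Small nucleolar RNAs lay inside 30 members (58 RNAs). Of these hosts 8 had a shared peak, and of the 56 other members 17 did. Rpl15 had no peak over its representative transcript, but both replicates had 1 over an exon of another of its transcripts (1.46 and 1.83).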
